A study of Homo sapiens with 7 samples.

Results

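The sites described here are 10793 RUNX2 peaks that were called in the T-cell acute lymphoblastic leukemia (T-ALL) line KARPAS-45 and not in the T-ALL line PER-117, that lay away from protein-coding gene ends, and that lay outside H3K27ac in both lines. They were chosen from the measured peak lists: a KARPAS-45 RUNX2 interval on chromosomes 1 to 22 and X was kept when it shared no base with a PER-117 RUNX2 peak, when its midpoint was over 1 kb from each end of every protein-coding gene, and when that midpoint was in no H3K27ac region of either list. Of 42911 KARPAS-45 RUNX2 intervals, 29524 had no PER-117 overlap, 24277 of these were distal, and the 10793 without H3K27ac made up 25.2% of the KARPAS-45 list (Wilson 95% interval 24.7 to 25.6, counting error only) and 44.5% of the distal KARPAS-45-only peaks (43.8 to 45.1). Both lines together held 63938 RUNX2 intervals. Because the lists chose the sites, the absence of the PER-117 peak, of H3K27ac and of a gene end is not a result. The same selection in PER-117, with the lines exchanged, left 1615 sites, or 7.68% of its 21027 RUNX2 intervals (7.33 to 8.05).

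The study mapped RUNX2 and H3K27ac by chromatin immunoprecipitation and sequencing in KARPAS-45, a line with a KMT2A rearrangement that was grown with 20% fetal bovine serum, and in PER-117, grown with 10%. Each line is an established culture, no treatment or genotype contrast is labelled, and there was 1 library per line and antibody. There were therefore no replicates, no test between lines or between classes of peaks was made, and every difference below is one within or between these libraries. Of 7 samples, 3 were inputs without a peak list. The files give no read depth, so how deeply a place without a peak was read is unknown.

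RUNX2 is a Runt-domain transcription factor best known for driving bone formation. It binds DNA with its partner CBFB at a short core sequence, TGTGGT or TGCGGT, that RUNX1 and RUNX3 also read. H3K27ac is an acetylation of histone H3 that is commonly used to mark active enhancers and promoters, so distal factor sites without it are sites where binding was called outside chromatin of that kind.

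Sequences are shown where a RUNX2 summit of the set fell inside a promoter window of the RefSeq table (250 bases before to 50 after a transcription start, GRCh38.p14), because these were the places where the bases under a summit could be read. Such windows can lie away from the gene ends when a gene has an internal start or is a long noncoding RNA (lncRNA). Of the 10793 sites, 60 (0.556%) had their summit in 65 such windows, of 29 protein-coding and 34 lncRNA genes, with RUNX2 fold enrichments between 3.02 and 25.98 and a median of 5.68. For 10 of the strongest, the bases are printed 5′ to 3′ on the strand of the gene, up to 60 bases to each side of the summit and ending at the window, with the core sequence on either strand in capitals.
PABIR3, chrX:134803925-134804045, plus strand: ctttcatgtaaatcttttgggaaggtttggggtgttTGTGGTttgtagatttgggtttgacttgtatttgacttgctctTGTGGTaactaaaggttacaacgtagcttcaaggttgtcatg
LOC124903359, chr14:90505697-90505793, plus strand: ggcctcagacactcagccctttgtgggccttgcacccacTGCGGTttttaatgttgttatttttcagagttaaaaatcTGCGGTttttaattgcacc
EML1, chr14:99793309-99793429, plus strand: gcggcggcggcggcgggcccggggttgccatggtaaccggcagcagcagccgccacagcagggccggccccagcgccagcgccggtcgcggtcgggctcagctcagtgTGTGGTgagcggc
C11orf91, chr11:33700883-33701003, minus strand: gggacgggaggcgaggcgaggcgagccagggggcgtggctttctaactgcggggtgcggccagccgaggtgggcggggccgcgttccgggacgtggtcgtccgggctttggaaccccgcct
MATK, chr19:3786332-3786418, minus strand: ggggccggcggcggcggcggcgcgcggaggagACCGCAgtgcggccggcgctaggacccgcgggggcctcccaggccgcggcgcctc
MGAT5B, chr17:76872550-76872670, plus strand: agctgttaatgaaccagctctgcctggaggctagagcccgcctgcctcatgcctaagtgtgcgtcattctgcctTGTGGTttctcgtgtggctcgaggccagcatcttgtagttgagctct
MPP7, chr10:28303065-28303185, minus strand: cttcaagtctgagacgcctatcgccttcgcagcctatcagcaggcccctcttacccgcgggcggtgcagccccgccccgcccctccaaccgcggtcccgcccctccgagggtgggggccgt
IER5L-AS1, chr9:129236030-129236150, plus strand: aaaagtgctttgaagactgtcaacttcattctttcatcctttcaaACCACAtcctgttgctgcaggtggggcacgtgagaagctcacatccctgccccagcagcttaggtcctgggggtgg
SYTL3, chr6:158649826-158649946, plus strand: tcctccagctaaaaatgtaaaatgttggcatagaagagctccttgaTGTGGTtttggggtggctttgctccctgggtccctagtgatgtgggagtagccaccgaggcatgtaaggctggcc
FAM171A1, chr10:15371254-15371374, minus strand: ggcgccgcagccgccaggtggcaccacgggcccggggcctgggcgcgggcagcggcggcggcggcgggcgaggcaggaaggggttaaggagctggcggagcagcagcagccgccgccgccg

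A core sequence was present in the bases shown for 7 of these 10 sites, and in 6 of them its centre was within 25 bp of the summit. The bases shown at PABIR3 (25.98-fold in KARPAS-45) held TGTGGT 2 times, and those of LOC124903359 (21.8-fold), an uncharacterised lncRNA, held TGCGGT 2 times. The bases shown at SYTL3 (12.47-fold), a vesicle-trafficking protein, at MGAT5B (14.3-fold), a glycosyltransferase, and at IER5L-AS1 (12.8-fold), an lncRNA, each held TGTGGT 1 time, the last on the opposite strand. The bases shown at EML1 (19.8-fold), a microtubule-associated protein, held TGTGGT 51 bp from the summit, and the bases shown at C11orf91, MPP7 and FAM171A1 held neither sequence. Of the 10 sites, 4 lay within 1 kb of an H3K27ac region, those at EML1, C11orf91, MPP7 and IER5L-AS1. Those at MATK, a kinase that restrains Src-family kinases in blood cells, held TGCGGT on the opposite strand.

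Over the whole 300-base windows, TGTGGT on either strand was present in 28 of the 65 with a summit of the set (43.1%, Wilson 95% interval 31.8 to 55.2) and in 13.1% of all 34960 promoter windows. TGCGGT was present in 12 of the 65 (18.5%, 10.9 to 29.6), against 7.3% of all windows, 16.0% of windows with the summit of another KARPAS-45 RUNX2 peak and 25.1% (19.7 to 31.4) of those with another unacetylated summit. Among the same 2 kinds of window TGTGGT was present in 13.3% and 23.2% (18.0 to 29.4). At least 1 of the motifs was present in 39 of the 65 (60%, 47.9 to 71.0), against 19.6% of all windows. Both motifs were searched on both strands; the 2 motifs differ at 1 base. Among 7272 windows with the summit of another KARPAS-45 RUNX2 peak the share with either was 27.4%, and among the 207 of other windows with an unacetylated summit it was 45.4% (38.8 to 52.2), whose interval overlaps that of the set. Some of the 60 sites lay in more than 1 of the 65 windows, and such windows share bases. The windows are therefore not independent, and the intervals are likely too narrow. These 60 sites are under 1% of the set, and the other sites could not be searched.

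Sites of the set also lay over miRNA hairpins, short RNA precursors. A peak with a fold enrichment of 11.2 (chr9:95085151-95085452) covered all 97 bases of the MIR23B hairpin and the first 8 bases of the MIR27B hairpin, inside AOPEP, an aminopeptidase gene, at 4242 bp from KARPAS-45 H3K27ac and 3141 bp from PER-117 H3K27ac. A peak of 4.41 (chr17:12081867-12082036) covered all 98 bases of the MIR744 hairpin in MAP2K4, a kinase of the JNK pathway, and a peak of 5.16 covered 76 of the 102 bases of the MIR4305 hairpin in COG6. The mature miRNAs of the fully covered hairpins follow with the seed, bases 2 to 8, in capitals. None of the 4 seeds is shared by another.
hsa-miR-23b-3p: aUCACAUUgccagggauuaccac
hsa-miR-23b-5p: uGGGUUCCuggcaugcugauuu
hsa-miR-744-5p: uGCGGGGCuagggcuaacagca
hsa-miR-744-3p: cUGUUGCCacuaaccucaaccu

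By median, the peaks of the set were somewhat weaker than the KARPAS-45 list as a whole. The fold enrichment is the authors' value for a single peak and is used only to rank within a list. In the set it had a median of 5.71 with quartiles of 4.53 and 8.23 and a highest value of 57.3. Its median over all KARPAS-45 RUNX2 peaks was 6.36. The distal KARPAS-45-only peaks with H3K27ac in 1 line or both (n = 13484) had a median of 5.91 and quartiles of 4.404 and 8.88. The 1876 distal peaks that were likewise outside H3K27ac but shared with PER-117 had 10.8, with quartiles of 6.62 and 19.8. A fold enrichment of 10 or more was reached by 1848 sites of the set (17.1%, 16.4 to 17.8), against 26.2% of all KARPAS-45 RUNX2 peaks. A −log10 q of 10 or more was reached by 4325 (40.1%, 39.2 to 41.0), against 51.5%. The acetylated distal KARPAS-45-only peaks lay nearer to the set, with 20.2% and 45.8%. The sites were narrow, with a median width of 235 bp against 271 bp for the acetylated distal KARPAS-45-only peaks and 285 bp for the whole list. More than 1 summit was called in 79 of them (0.732%, 0.588 to 0.911), against 6.65% of the whole list and 4.20% of the acetylated distal KARPAS-45-only peaks. Few summits were not particular to the set. The share was 2.77% for the shared unacetylated distal peaks and 0.867% (0.517 to 1.45) for the PER-117-only ones, whose interval overlaps that of the set.

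When the KARPAS-45 RUNX2 list was split into deciles by fold enrichment, the set made up 24.9% of the weakest decile, 32.0% of the third and 11.2% of the strongest. As a share of the distal KARPAS-45-only peaks in each decile, it ran from 38.9% in the weakest through 49.2% in the fourth to 36.4% in the strongest. The fall of the first share in the strong deciles thus came with fewer distal KARPAS-45-only peaks there, 1323 in the strongest decile against 2740 in the weakest, and the second share varied less.

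**Figure D1:**
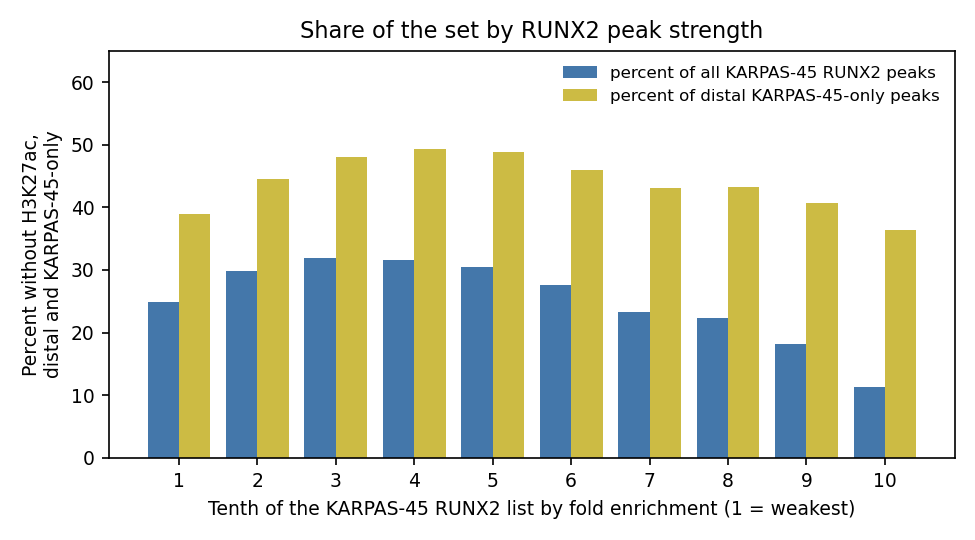
Share of the KARPAS-45 RUNX2 peaks that belong to the set, in deciles of the list by fold enrichment (x axis, weakest at the left), as a percent (y axis) of all KARPAS-45 RUNX2 peaks and of the distal KARPAS-45-only peaks. The first share is 11.2% in the strongest decile, while the second stays between 36.4% and 49.2%.

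The strongest sites lay in and near genes of varied function. The highest fold enrichment, 57.3, lay inside CFAP46, a cilia-associated protein (chr10:132893648-132894229, hg38), at 15763 bp from the nearest H3K27ac region, which was of KARPAS-45, and 164422 bp from the nearest PER-117 RUNX2 peak. A peak of 53.5 (chr1:31133256-31133788) lay outside genes with LOC124904579 as its nearest protein-coding gene, only 45 bp from a KARPAS-45 H3K27ac region and 21729 bp from one of PER-117. A peak of 51.96 lay 29782 bp from ZBTB40, a zinc finger gene, and 51937 bp from H3K27ac. Inside NF2, which encodes the tumour suppressor merlin, a peak had 51.0 (chr22:29663358-29663741), and inside PKNOX2, a homeobox gene, another had 50.9 (chr11:125168150-125168540). Those at NF2 and PKNOX2 were 20263 and 55925 bp from H3K27ac.

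Of the 12 strongest, 3 more lay in or nearest to genes of development and the cell surroundings. A peak of 50.9 lay 133568 bp from FOXD1, a forkhead factor of the kidney stroma, a peak of 46.4 lay 46250 bp from FZD7, a Wnt receptor, and a peak of 48.4 lay inside LTBP2, a matrix protein of the TGF-beta binding family. Their distances to H3K27ac were 73333, 45318 and 37939 bp. Inside lncRNA genes, EPIC1 held a peak of 50.7 and LINC-PINT, an lncRNA induced by p53, one of 50.04 that lay 17565 bp from KARPAS-45 H3K27ac and 254 bp from PER-117 H3K27ac. Another was beyond the RUNX2 gene itself, 35760 bp from its end (chr6:45586631-45587052), with 47.3, at 31752 bp from H3K27ac and 79096 bp from a PER-117 RUNX2 peak. Of the 16 KARPAS-45 RUNX2 midpoints inside the RUNX2 gene, 2 belonged to the set, with 3.34 and 4.01, as did 3 of 35 in the overlapping SUPT3H.

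Inside protein-coding genes lay 5425 sites of the set (50.3%, 49.3 to 51.2), against 56.2% of all KARPAS-45 RUNX2 peaks and 63.9% (63.1 to 64.7) of the acetylated distal KARPAS-45-only peaks. A further 1207 (11.2%) were in an lncRNA gene only, and 3978 (36.9%, 36.0 to 37.8) were outside every annotated gene, against 25.3% (24.6 to 26.03) of the acetylated ones. The shares inside protein-coding genes were close for the other unacetylated distal classes, 51.1% (48.9 to 53.4) of the shared peaks and 51.7% (49.3 to 54.1) of the PER-117-only peaks, with intervals that overlap that of the set. The median distance to a protein-coding gene end was 31904 bp, against 21242 bp for the acetylated distal KARPAS-45-only peaks, and 2257 sites (20.9%) were over 100 kb from one.

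Host genes were long. A longer span offers more bases for a midpoint, and the rule, which left out midpoints within 1 kb of a gene end, takes a larger part of a short span. The part of either in the length of the host genes was not tested. At least 1 site was held by 3310 of 19970 protein-coding genes (16.6%). Of these, 2127 held 1, 1058 held 2 to 4 and 125 held 5 or more. The median span was 106 kb for genes with a site and 18.2 kb for genes without. The share of genes with a site was 2.42% for spans up to 20 kb, 28.0% between 50 and 100 kb and 61.5% between 200 and 500 kb. Per length, the density of sites was 3.08 per Mb in genes up to 20 kb, 5.38 per Mb between 100 and 200 kb and 2.497 per Mb over 500 kb. For all KARPAS-45 RUNX2 peaks it was 43.9, 21.5 and 5.80 per Mb in the same classes.

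Among genes over 200 kb, H3K27ac of either line was called near a gene end more often where the gene held a site. For spans between 200 and 500 kb, a KARPAS-45 H3K27ac region reached within 1 kb of a gene end in 438 of 665 genes with a site (65.9%, 62.2 to 69.4) and in 126 of 417 genes without (30.2%, 26.01 to 34.8). For PER-117 H3K27ac the shares in this class were 51.4% and 30.7%. Over 500 kb the KARPAS-45 counts were 80 of 187 (42.8%, 35.9 to 49.9) and 9 of 127 (7.09%, 3.77 to 12.9), and the PER-117 shares 32.1% and 11.02%. For KARPAS-45, between 20 and 50 kb the shares were 67.2% (63.1 to 71.0) and 70.7% (69.3 to 72.0), with intervals that overlap. Between 50 and 100 kb they were 71.3% (68.1 to 74.3) and 66.2% (64.2 to 68.2), and between 100 and 200 kb 71.1% (68.0 to 74.0) and 57.4% (54.4 to 60.3), where those of PER-117 were 57.8% and 54.9%. Neighbouring genes are not independent of each other, and within a class the genes with a site may still be the longer ones, which was not tested.

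Genes of chromosome 8 were left out of the rankings of host genes. Among the others HDAC9, a class IIa histone deacetylase, held the most sites, 18 of its 25 KARPAS-45 RUNX2 midpoints. PER-117 had 1 RUNX2 midpoint in it (chr7:18086825-19002416). The fold enrichments of the 18 sites ran from 3.17 to 13.7 with a median of 5.21, and 27 KARPAS-45 and 3 PER-117 H3K27ac regions had their midpoint in the same gene. AUTS2, a neurodevelopmental gene, held 15 of 34 and WWOX, an oxidoreductase gene at a common fragile site, 13 of 30. GMDS, the first enzyme of GDP-fucose synthesis, and ATP8A2, a phospholipid flippase, held 12 each. ATP8A2 had 24 KARPAS-45 and 0 PER-117 RUNX2 midpoints, with 17 KARPAS-45 and 1 PER-117 H3K27ac regions. PARD3, a cell polarity protein, held 11 and UTRN, the dystrophin relative utrophin, 10.

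The next genes by count outside chromosome 8 each held 9 sites: CELSR1, DIP2C, RERE, PALM2AKAP2, FSTL4, RGS6, RANBP2 and GPC6. RANBP2 was counted over a RefSeq span of 1123 kb (chr2:108719482-109842301), longer than commonly drawn for this gene. Its sites may therefore lie in or near other genes, and its gene ends below are those of this span. In GPC6, a glypican, these were 9 of 13 KARPAS-45 RUNX2 midpoints with a median fold enrichment of 9.45, against 1 PER-117 midpoint. In RGS6, a regulator of G-protein signalling, they were 9 of 24, and PER-117 had 14 RUNX2 midpoints of its own. RGS6 and GPC6 had no H3K27ac within 1 kb of either gene end in either line, nor did CELSR1, DIP2C, FSTL4 and ATP8A2, while AUTS2, WWOX, GMDS, PARD3, UTRN, RERE and RANBP2 had it in both lines, and HDAC9 and PALM2AKAP2 in KARPAS-45.

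**Figure D2:**
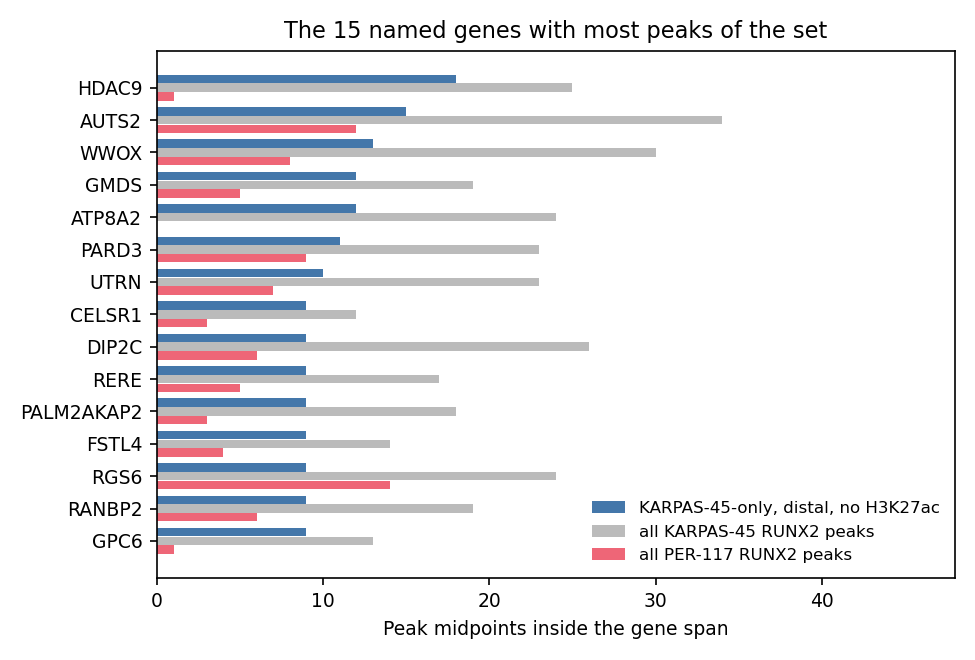
Number of peak midpoints (x axis) inside the spans of the 15 protein-coding genes with most sites, chromosome 8 left out: sites of the set, all KARPAS-45 RUNX2 peaks and all PER-117 RUNX2 peaks. HDAC9 leads with 18 sites, and ATP8A2 has 0 PER-117 peaks.

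By density, among genes over 20 kb outside chromosome 8 with 5 or more sites, PAX2, a kidney and eye development factor, stood first with 52.9 sites per Mb. All 5 of its KARPAS-45 RUNX2 midpoints belonged to the set, with fold enrichments of 4.80 to 10.3, and PER-117 had 0. CELSR1, a cadherin of planar cell polarity, followed with 51.0 per Mb and 9 of 12 midpoints, the strongest at 24.8. MCF2L, a guanine exchange factor, held 7 of 8 midpoints in the set at 34.1 per Mb. It had no H3K27ac midpoint of either line inside its span, and its sites lay 48912 to 112023 bp from H3K27ac. The others were PRKCZ, ABTB2, SAMD4A, GNAO1 and RIPOR2, with 29.4 to 36.5 sites per Mb, and RIPOR2 held the strongest site among them, 38.2.

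The gene lists differed in how much of their KARPAS-45 RUNX2 binding belonged to the set. Since the sites were chosen away from gene ends, H3K27ac and PER-117 RUNX2 peaks, these shares partly restate that choice. They are a description, and no list was tested. Over all protein-coding genes, 5563 of 24938 gene and midpoint pairs did, or 22.3%. In 31 T-lineage genes, 8 of 138 did (5.80%), held by 6 genes. LEF1, a T-cell factor, held 1 of 10, with 20.4, and NOTCH1 1 of 7. The lymphoid transcription factor IKZF1 held 1 of 20. In 22 RUNX and KMT2A-fusion target genes, 14 of 163 did (8.59%), held by 8 genes, with 3 each in JMJD1C and SUPT3H and 2 each in BCL2 and RUNX2. In 22 genes of lymphoid signalling and the cytoskeleton, 24 of 142 did (16.9%), held by 10 genes, among them 4 each in ARHGAP15, ELMO1 and FYN and 3 in DOCK2.

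The remaining lists gave shares from 15.1% to 62.1%, with the same limit, and those of the bone and olfactory receptor lists rest on few midpoints. In 25 genes of synapses and neural adhesion, 18 of only 29 KARPAS-45 RUNX2 midpoints belonged to the set (62.1%), held by 9 genes, with 4 of 8 in CTNNA2, 3 of 5 in DPP6 and 3 of 3 in NLGN1. In 19 common fragile site genes it was 47 of 97 (48.5%), held by 11 genes, of which AUTS2 had 15 and WWOX 13. In 21 bone genes it was 4 of 11 (36.4%). Those 4 were the only KARPAS-45 RUNX2 midpoints in their genes: DLX5, a homeobox factor of bone and limb, with a fold enrichment of 11.2, SP7, the osteoblast factor osterix, with 9.76, FGFR2 with 7.42 and ALPL, the alkaline phosphatase of mineralising bone, with 4.53. PER-117 had 0 RUNX2 midpoints in each of these 4. The 517 zinc finger genes had 74 of 489 (15.1%) and the 392 olfactory receptor genes 4 of 18 (22.2%). The share of genes with a site was 19.4% for the T-lineage list, 19.0% for the bone list, 36.0% for the synapse list and 57.9% for the fragile site list, against 16.6% of all protein-coding genes. The lists differ in length, with median spans of 34.9, 17.5, 1118 and 1504 kb in that order, so these shares do not compare binding per base. Per Mb, the synapse list had 0.578 sites and the T-lineage list 4.86, against 4.30 over all genes.

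Across chromosomes the sites averaged 3.56 per Mb. The density was highest on chromosome 17 with 5.05 per Mb (420 sites), followed by chromosomes 6 with 4.64 (793 sites) and 22 with 4.55 (231 sites), and lowest on X with 2.44 (381 sites). As a share of all KARPAS-45 RUNX2 peaks of a chromosome the order was different. Chromosome 13 had 33.1% (30.5 to 35.8), X 31.8% (29.2 to 34.5) and chromosome 4 31.6% (29.5 to 33.8), while chromosome 17 had 16.8% (15.3 to 18.3) and chromosome 19 12.3% (10.8 to 13.8), with intervals that do not overlap those of the first 3. The share ran against the number of protein-coding genes per Mb (Pearson r = -0.83, Spearman coefficient = -0.80 across 23 chromosomes) and against that of KARPAS-45 H3K27ac regions per Mb (-0.88 and -0.91). The density of sites per Mb went the other way, with 0.37 and 0.55 against genes and 0.66 and 0.65 against H3K27ac regions, each as Pearson and Spearman coefficients. All points come from 1 library, and since the sites were chosen away from gene ends and H3K27ac, the coefficients of the share largely restate that choice. As a share of the distal KARPAS-45-only peaks alone, the range was 32.8% on chromosome 17 to 52.9% on chromosome 13.

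**Figure D3:**
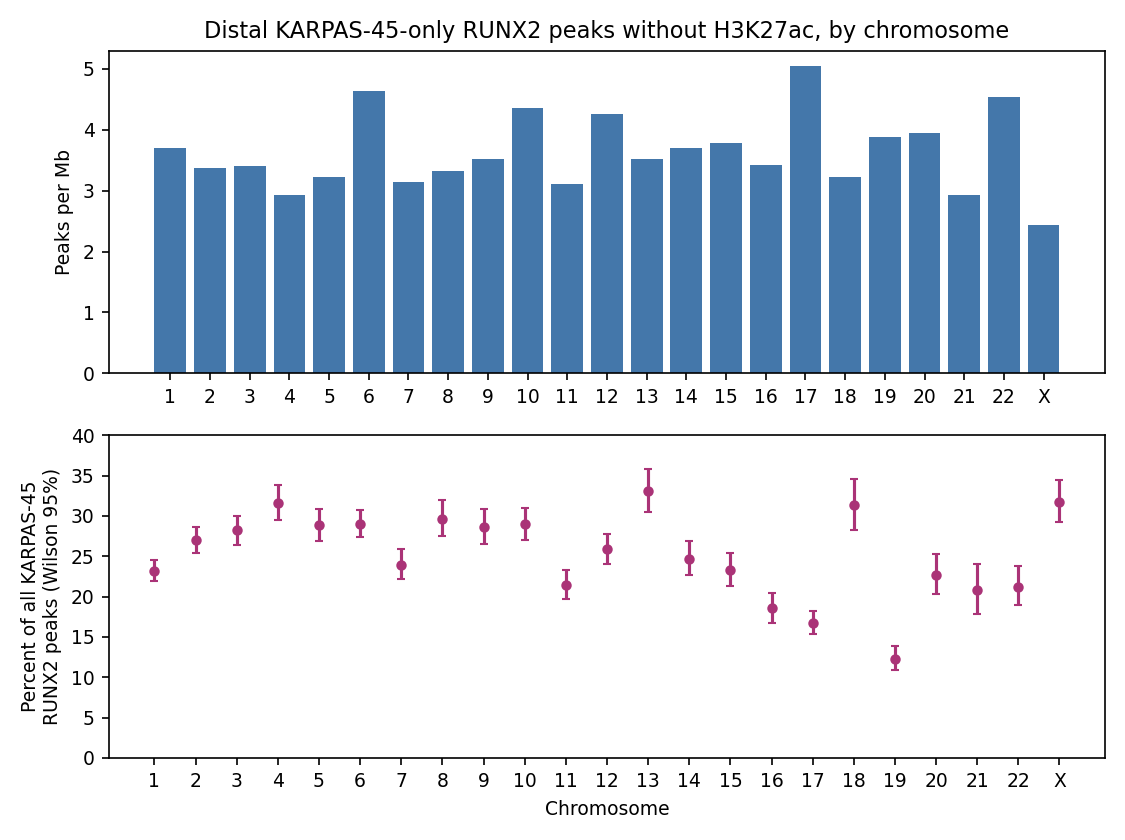
Sites of the set by chromosome (x axis): sites per Mb of chromosome in the upper panel and percent of all KARPAS-45 RUNX2 peaks of that chromosome in the lower panel, with Wilson 95% intervals as bars. Chromosome 17 has the highest density, 5.05 per Mb, and 1 of the lowest shares, 16.8%, and chromosome 13 has the highest share, 33.1%.

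In windows of 10 Mb the number of sites ran from 0 to 99 with a median of 33 over 310 windows. The first 10 Mb of chromosome 6 held the 99, or 38.2% (32.5 to 44.3) of its 259 KARPAS-45 RUNX2 peaks. The windows from 50 to 60 Mb of chromosome 14 and from 30 to 40 Mb of chromosome 6 held 79 each. These were 36.1% of 219 RUNX2 peaks in the chromosome 14 window and 22.6% (18.6 to 27.3) of 349 in the chromosome 6 window. The latter interval holds the 25.2% of the whole list, so that high count came without a high share. Among the 284 windows with 40 or more RUNX2 peaks, the share was highest between 80 and 90 Mb of chromosome 13, with 32 of 55 (58.2%, 45.0 to 70.3), and 73 of 149 (49.0%, 41.1 to 56.9) fell in the set between 80 and 90 Mb of chromosome 9. Copy number of these regions in the 2 lines was not analysed here.

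Most sites stood alone. With midpoints up to 12500 bp apart joined, the 10793 sites formed 9693 groups, of which 8734 were single sites, 834 pairs, 111 triples and 14 larger, the largest with 5. Thus 2059 sites (19.1%, 18.3 to 19.8) had another site of the set within 12500 bp. The share was 9.11% when RUNX2 peaks under a −log10 q of 10 were left out, and 29.9% with KARPAS-45 H3K27ac cut to the covered length of PER-117. Of the 13484 acetylated distal KARPAS-45-only peaks, 6651 (49.3%, 48.5 to 50.2) had another of their own kind so near, in groups of up to 23. That set holds more peaks, and the part of its size in this difference was not tested. Counting any KARPAS-45 RUNX2 peak as a neighbour, 40.6% of the sites had one within 12500 bp, against 72.7% of the acetylated distal KARPAS-45-only peaks and 61.8% of all. The median distance to the nearest other KARPAS-45 RUNX2 peak was 17377 bp, 5081 bp and 7506 bp for the set, the acetylated peaks and the whole list.

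**Figure D4:**
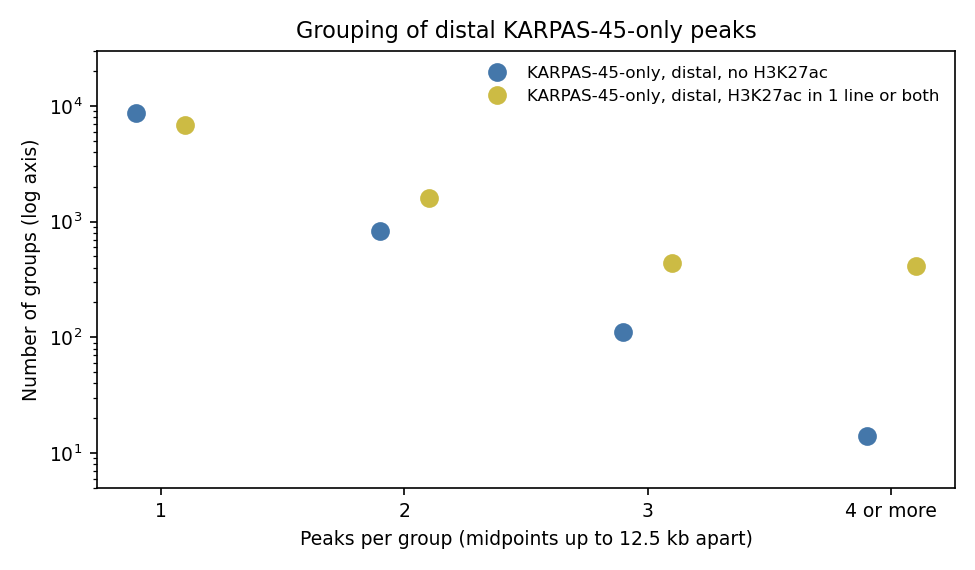
Number of groups (y axis, log scale) by the number of peaks per group (x axis, midpoints up to 12500 bp apart joined) for the set and for the distal KARPAS-45-only peaks with H3K27ac in 1 line or both. The set has 14 groups of 4 or more and the acetylated peaks have 412.

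The nearest neighbour of a site was most often another site of the set. This held for 4510 sites (41.8%, 40.9 to 42.7), while the set is 25.2% of the list. The nearest neighbour was an acetylated distal KARPAS-45-only peak for 24.0%, which are 31.4% of the list, and a shared acetylated peak for 17.4%, which are 26.5%. For acetylated distal KARPAS-45-only peaks the nearest neighbour was one of their own kind in 49.0% and a site of the set in 14.9%. Peaks near each other often lie on the same side of the rule on H3K27ac, which chose the set, so these shares are a description.

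The largest group outside chromosome 8 had 5 sites in 22.99 kb near DTNBP1 (chr6:15668573-15691564), with fold enrichments of 4.01, 3.76, 5.01, 10.7 and 10.5 in order along the chromosome. No other KARPAS-45 and no PER-117 RUNX2 peak lay in it, and 3 KARPAS-45 H3K27ac regions lay in its span, the nearest at 34 bp. Groups of 4 lay within AHI1, a cilium gene next to MYB, and within DLG1, a scaffold of lymphocyte polarity, with 0 H3K27ac regions of either line among them. The 4 sites in AHI1 (chr6:135438931-135451898) had 10.8, 2.88, 8.20 and 4.15, and those in DLG1 (chr3:197231805-197253891) had 3.89, 8.75, 15.7 and 5.37. In PARD3 4 sites reached 25.98, and in CFAP46 the peak of 57.3 stood among 3 weaker ones of 3.603 to 12.6. The group nearest to SPATA31D4 had 18, 4.80, 14.4 and 25.6, at 100316 bp or more from a gene end. Groups of 4 near TBXT and SGPL1 stayed at 6.57 or below.

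Joining up to 50 kb apart gave 7543 groups, and 5352 sites (49.6%) then had company. The longest run by count, looked up after these values were seen, was 10 sites in 174 kb between VAPA and APCDD1 (chr18:9966007-10139597), with fold enrichments of 3.14 to 18.9. Of 11 KARPAS-45 RUNX2 peaks in that stretch 10 belonged to the set, with 0 PER-117 RUNX2 peaks, 6 KARPAS-45 and 0 PER-117 H3K27ac regions. A run of 9 lay within SAMD4A, an RNA-binding protein gene, and beyond its end, another of 9 lay across HEG1, SLC12A8 and ZNF148, and among runs of 8 were those at LRCH1 and LY86.

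Distances to H3K27ac spread widely. The nearest H3K27ac region of either line was at a median of 10659 bp, with quartiles of 2068 and 36167 bp. That median depended on the lists: it was 17227 bp with a margin of 1 kb around H3K27ac, 22380 bp with the wider 50% of regions and 24596 bp with KARPAS-45 H3K27ac cut to the covered length of PER-117. Within 1 kb there were 2078 sites (19.3%, 18.5 to 20.0), within 10 kb 5265 (48.8%, 47.8 to 49.7), and over 100 kb from H3K27ac of both lines 1093 (10.1%, 9.57 to 10.7). Within 10 kb of a region there were 84.6% of all KARPAS-45 RUNX2 peaks, most of which lie inside one. KARPAS-45 H3K27ac was closer than PER-117 H3K27ac for 8002 sites (74.1%, 73.3 to 74.96), with median distances of 13867 and 34025 bp. The KARPAS-45 list has more regions, 63265 against 53263, and its 5379 widest regions alone cover about as many bases as all regions of PER-117. The part of this in the distances was not tested.

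The distances were also taken for the other unacetylated distal classes. The shared peaks had medians of 14917.5 bp to KARPAS-45 H3K27ac and 15446.5 bp to PER-117 H3K27ac, and the PER-117-only peaks 27840 and 9083 bp. Within 10 kb of PER-117 H3K27ac were 24.97% of the set (24.2 to 25.8), 41.5% of the shared peaks (39.3 to 43.8) and 51.2% of the PER-117-only peaks (48.8 to 53.6). Within 10 kb of KARPAS-45 H3K27ac were 43.4% of the set (42.5 to 44.4), 42.9% of the shared peaks (40.6 to 45.1) and 32.8% of the PER-117-only peaks (30.6 to 35.1). The set and the shared peaks had overlapping intervals for KARPAS-45 H3K27ac and separate ones for PER-117 H3K27ac. The set and the PER-117-only peaks had separate ones for both. The same H3K27ac lists chose these classes, and peaks of a single library are not replicates. The distances are therefore a description, and no difference between classes was tested.

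**Figure D5:**
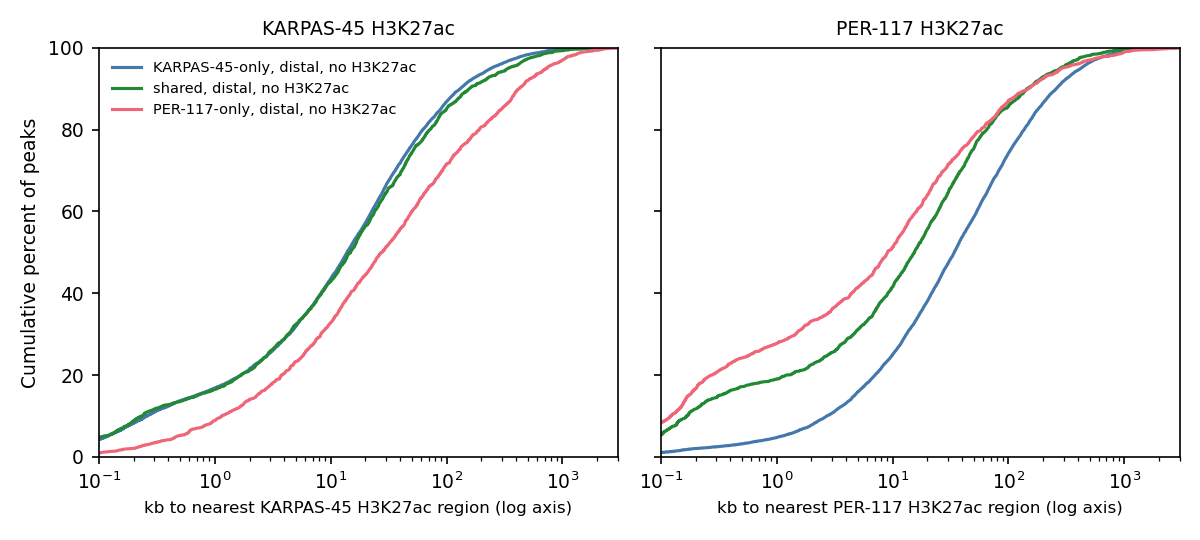
Cumulative percent of peaks (y axis) by distance in kb (x axis, log scale) to the nearest KARPAS-45 (left) or PER-117 (right) H3K27ac region, for 3 distal classes outside H3K27ac. The curves of the set and of the shared peaks run together at the left, with 43.4% and 42.9% within 10 kb, and apart at the right, with 24.97% and 41.5%.

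At the far end, a site of 7.57 near CDH8, a neural cadherin (chr16:60945291-60945534), lay 1879697 bp from any H3K27ac region and 2189147 bp from a PER-117 RUNX2 peak. The next lay near LOC124901495, ADGRL3, IMMP2L and TRIM48, at 1394270 to 1853432 bp, with fold enrichments of 3.72 to 6.005. At the near end, sites in EVI5, PDS5B, TMOD3, PEX13 and ADCY1 lay 1 bp from a region, of KARPAS-45 at EVI5, PDS5B and PEX13 and of PER-117 at TMOD3 and ADCY1. Some part of the interval touched a region at 735 sites.

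The thresholds of the selection passed through continuous values. The sites nearest to a gene end were at 1005 bp from ALG14, 1005 bp from PDZD8 and 1006 bp from LUZP1, with fold enrichments of 3.98, 3.20 and 7.63, and peaks left out by this step stood at 1000 bp from PHF3, 996 bp from GID8 and 993 bp from CNTNAP2, with 6.68, 5.02 and 24.4. At the edge of H3K27ac, 549 sites lay up to 100 bp outside a region with a median fold enrichment of 5.85, and 447 distal KARPAS-45-only peaks up to 100 bp inside one with 5.59. Of the sites, 99 had their midpoint within 1 kb of a PER-117 RUNX2 peak, the nearest at 108 bp.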

How the data were processed

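Each antibody (RUNX2, H3K27ac) had a single library in each of the lines. Crosslinked chromatin was sheared to 200 to 300 bp, per the labels' protocols. STAR (2.4.2a), MACS2 and the build hg38 are listed, per the submitters' processing notes, while their settings are not given in the sources used. The authors deposited, per peak, a display score, a fold enrichment (a ratio), −log10 p and −log10 q, and a summit, which is 100 throughout the H3K27ac lists and was used there for nothing. The lowest deposited −log10 q was 0.431 and 1.01 in the KARPAS-45 and PER-117 H3K27ac lists and 1.31 and 1.30 in the RUNX2 lists. A loose list covers more and leaves fewer sites outside H3K27ac.

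RUNX2 lines of the same interval were joined, keeping the summit of highest fold enrichment (46275 KARPAS-45 lines, 127 of them on other sequences, gave 42911 intervals). Genes were the 59094 entries of a RefSeq table (GRCh38.p14) on chromosomes 1 to 22 and X, 19970 of them protein-coding, with spans but no exons. No genome sequence was used here. Peaks inside a gene were counted by midpoint. Tables and shares were handled in pandas 2.3.3 and numpy 2.4.6 under Python 3.11.15, correlations in scipy 1.17.1 and plots in matplotlib 3.10.9. On 20 simulated sets, interval results and base-by-base counting differed by 0, and 94.05% of simulated Wilson intervals held the true value. Neighbouring peaks are not independent, so intervals are likely too narrow.

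Members and gene lists were chosen with earlier results of these data known. Named are the 12 strongest sites, the 15 genes with most sites, the 8 densest genes over 20 kb with 5 or more, the 8 largest groups (ties of 4 in order of chromosome), the 5 sites farthest from and nearest to H3K27ac, sites at the gene-end threshold, and up to 4 genes per list; some results are not reported here. Promoter bases are printed for the 10 strongest sites in a window, with genes and sequences of chromosome 8 left out.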

Additional observations from a re-analysis of the deposited data

Results flagged for a closer look

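Outside chromosomes 1 to 22 and X, the KARPAS-45 RUNX2 list held 103 intervals, which the selection did not use. Of these, 60 had no overlapping PER-117 RUNX2 peak and no H3K27ac at the midpoint in either line. The gene-end step was not part of this count, which is a description only. Their fold enrichments ran from 1.37 to 28.4 with a median of 5.605. With 1 library per group, no search for a deviating sample could be made.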

How the results depend on the processing

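No paired analysis was possible because each line and antibody had 1 library, and for the same reason no replicate could be left out. The number of sites, 10793, stayed within 1.5 times under 10 of 11 alternatives and was 4325 when RUNX2 peaks under a −log10 q of 10 were dropped, where the median fold enrichment was 9.21 and 9.11% of sites had another within 12500 bp. Values below moved beyond the counting error of the main value. With H3K27ac regions of −log10 q of 2 or more, 51.6% of sites lay in a protein-coding gene, 23.3% had another within 12500 bp and the median distance to H3K27ac was 14555 bp. With the wider 50% of H3K27ac regions, 22.2% had another and the distance was 22380 bp. A margin of 1 kb around H3K27ac gave 48.1%, 16.5% and 17227 bp. Requiring no H3K27ac base in the interval gave 18.0% with another and 12638 bp. Distance from the ends of all annotated genes gave 51.4% in protein-coding genes. Added after results were known, KARPAS-45 H3K27ac at equal covered length (its 5379 widest regions) gave 16180 sites, a median fold enrichment of 5.93, 52.9% in genes, 29.9% with another and 24596 bp, and the KARPAS-45 list alone gave 19.9% and 13411 bp. Chromosome 17 ranked 1 of 23 by density and 22 by share of its RUNX2 peaks.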
